A study of Dugesia japonica with 12 samples.

Results

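The comparison set 3 libraries of worms after 5 days in the herbicide glyphosate beside 3 libraries of worms after 3 days, 6 of the 12 libraries of the series, and asked which functions stood at similar levels at these times and which drifted. The libraries were assigned to the times by their labels. All worms were whole Dugesia japonica of the clonal, asexually reproducing strain Dj-NH, descended from stream-collected animals. The exposed groups were kept at 64 mg per L, labelled as 1/2 of the median lethal concentration, and individuals were sampled at random and frozen after 1, 3 or 5 days; the control group is labelled only as untreated, with no time of its own. Each group had 3 libraries of polyadenylated RNA. The age of the worms, the number of worms in a library and whether replicate libraries stem from different vessels are not given in the labels, so the p-values below measure the spread between these libraries, part of which may be technical.

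Planarians are free-living flatworms that renew all tissues from a pool of dividing stem cells, the neoblasts, which are marked by piwi, MCM and histone transcripts. Glyphosate blocks an enzyme of the shikimate pathway, by which plants and many microbes make aromatic amino acids and which animals lack. Small heat shock proteins hold unfolding proteins in solution, the proteasome degrades proteins tagged with ubiquitin, and cathepsins are the proteases of the lysosome and of the planarian gut.

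Abundance was in TPM, transcript abundance corrected for length and rescaled so that all libraries share nearly the same sum. The table lists 30535 assembled genes, and the 27329 that reached 1 TPM in 3 or more of the 12 libraries were tested. The TPM of the 12 libraries summed to between 978610 and 986584, and sequencing depth is unknown because TPM keeps none. Markers of neoblasts (DjPiwiA, 57.7 to 137 TPM) and neurons (secretogranin 5, 25.8 to 37.7 TPM) were present in all 6 libraries. Beta-actin, which marks no single tissue, was at 2276 to 3446 TPM. Among these 6, replicate 2 of day 3 had the most genes at 1 TPM, 23602, against 20667 and 18888 in the other day 3 libraries. At day 5 the count was 20405 to 21160. The median log2(TPM + 1) over the tested genes was 2.00 in that replicate, against 1.64 and 1.49, and 1.65 to 1.74 at day 5. Replicate 1 of the controls (23164 genes, median 2.00) and replicate 2 of day 1 (23249 genes, median 1.91) stood at a similar level. Replicate 3 of day 3, at 18888 genes and 1.49, was the lowest of the 12 libraries. Replicate 2 of day 3 was kept, and results are also given without it. The medians of the functional lists were not taken without other single libraries. Genes whose annotation names a hit in cattle or their relatives, or whose Swiss-Prot protein hit is in a ciliate, may be transcripts of food or of other organisms carried with the worms. The ciliate class rests on the Swiss-Prot hit alone. It can therefore hold genes whose annotation names a hit in another organism. The cattle-type hits made up 1.77 ± 1.23% (SD, n = 3) of the TPM at day 3 and 1.62 ± 0.923% at day 5 (two-sided exact permutation test, p = 0.9, with 0.1 the smallest p possible), and the ciliate-type hits 0.0714 ± 0.0331% and 0.0537 ± 0.00285% (p = 0.6).

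No gene was called different between day 5 and day 3. In the limma fit across all tested genes, 0 of 27329 genes (0%) passed a Benjamini-Hochberg adjusted p of 0.05, and the smallest adjusted p was 0.233. Without an adjustment, 373 genes (1.36%) were higher and 469 (1.72%) lower at day 5 at p under 0.05, 842 in all (3.08%). The steps before it in the same fit gave 36 called genes for day 1 against control, with 2414 (8.83%) at unadjusted p under 0.05, and 49 called genes for day 3 against day 1, with 2366 (8.66%). Without replicate 2 of day 3 the count for day 5 against day 3 was again 0, with 970 genes at unadjusted p under 0.05 and a smallest adjusted p of 0.279. Without replicate 2 of day 5 it was 1, the caspase-3-like transcript described further on.

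The distance between libraries, taken as the root mean square of the log2(TPM + 1) differences over all tested genes, was of similar size across these times and within them. The 9 pairs of a day 3 and a day 5 library lay 0.57 to 0.78 apart with a median of 0.66, the 3 pairs within day 3 lay 0.64 to 0.83 apart (median 0.75), and the 3 pairs within day 5 0.58 to 0.68 apart (median 0.64). The distances across the times were thus below those within day 3 by their median and slightly above those within day 5. Control libraries lay further off, with a median distance of 0.85 from day 3 and 0.79 from day 5, but they also lay apart from each other. The 3 pairs within the controls were 0.62 to 0.76 apart (median 0.75).

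A count of 0 does not show that levels were equal, so the width of the intervals matters. For 15007 genes (54.9%) the 95% confidence interval of day 5 minus day 3 lay wholly between -1 and 1 on the log2(TPM + 1) scale, so that a change of 1 log2 unit in either direction lay outside it. The share depended on abundance: it was 29.7% for genes with a mean under 2 TPM, 68.7% from 2 to 5, 82.9% from 5 to 20, 90.1% from 20 to 100 and 84.5% from 100 TPM up. The median half-width of the interval was 0.90 in the lowest of these classes and 0.47 from 20 to 100 TPM. Among the 4158 genes with a best hit in a flatworm, 3678 (88.5%) were bounded in this way, against 5634 of the 15428 genes without any hit (36.5%). Of all tested genes, 1745 (6.39%) had day 3 and day 5 values that did not overlap. Without replicate 2 of day 3, 13394 genes (49.0%) were bounded, and the median of all genes moved from -0.04 to 0.11. Leaving out replicate 3 of day 3 instead gave 11827 bounded genes (43.3%) and a median of -0.15. Leaving out replicate 1 of day 3 gave 11470 (42.0%) and -0.08.

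**Figure D1:**
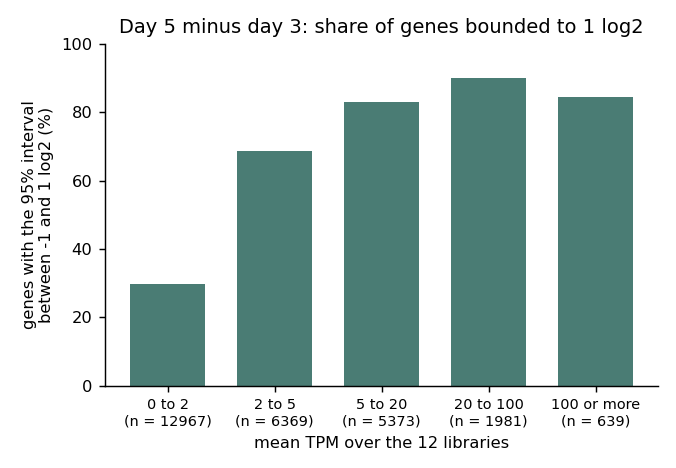
Share of genes whose 95% interval for day 5 minus day 3 lies between -1 and 1 log2, by mean TPM over the 12 libraries, with the number of genes under each bar. The share is 29.7% under 2 TPM and 82.9% or more from 5 TPM up.

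Most genes that separated the exposed worms from controls had an interval of day 5 minus day 3 within 1 log2 of 0, and 0 of them were called between these times. Against control, the mean of day 3 and day 5 was higher for 338 genes (1.24%) and lower for 928 (3.4%), 1266 together (4.63%). The balance of directions depended on the scaling: quantile normalization gave 1016 higher and 1044 lower, median-ratio scaling 846 and 990, and rescaling without the 2 most abundant transcripts 562 and 582, with the median of all genes moving from -0.08 to 0.04 under the last. This contrast weighs day 3 and day 5 equally, so that a gene does not enter it for a difference between them. Both contrasts use the same estimate of the spread of a gene, however. Genes with a small spread are more often called against control and also have narrower intervals and smaller p between the later times. The shares below, set beside those of all genes, are therefore partly fixed by the choice of called genes. Of the 338 higher genes, 214 (63.3%) had an interval of day 5 minus day 3 within 1 log2 of 0 and their median difference was 0.01; of the 928 lower genes, 697 (75.1%) were bounded and the median was -0.10, against 54.9% of all genes. At unadjusted p under 0.05, 13 of the 338 were higher at day 5 and 11 lower, together 7.10%, and 13 of the 928 were higher and 35 lower, together 5.17%, against 3.08% of all genes. The 193 lower genes with flatworm hits were bounded in 190 cases (98.4%), against 88.5% of all genes with flatworm hits, and their median was -0.09. A bound of 1 log2 does not show that a smaller fall persisted: 423 of the 928 lower genes, and 154 of these 193, had fallen against control by less than 1 log2, so that their interval could hold a full return. The median fall of the 928 was -0.98 at day 3 and -1.09 at day 5, and that of the 193 was -0.78 and -0.87; both times share the controls and both entered the choice of these genes. The number of called genes rested on single libraries: it was 408 without replicate 1 of the controls, 806 without replicate 2 and 732 without replicate 3 of the controls, and 776 and 835 without replicates 1 and 3 of day 5. Without replicate 2 of day 3 it was 1487, of which 1108 (74.5%) were bounded.

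**Figure D2:**
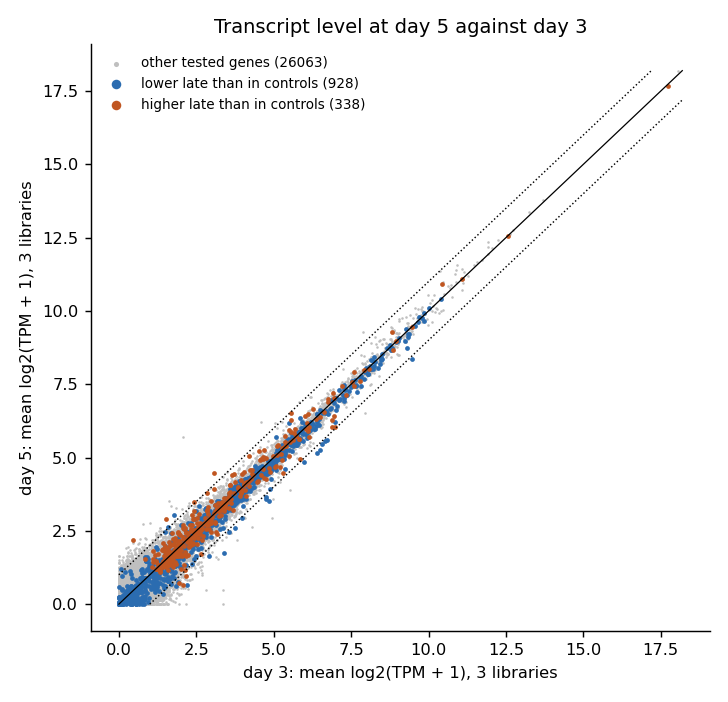
Mean log2(TPM + 1) at day 5 against day 3 for the 27329 tested genes (log scale, 3 libraries each). Orange and blue points are the 338 genes higher and the 928 lower at the later times than in controls; the solid line marks equal levels and the dotted lines differences of 1 log2. The coloured points lie along the solid line, and the scatter is widest at low levels.

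The transcripts with the largest rises over control stood at similar levels at both later times. They were chosen among called transcripts whose later libraries did not overlap the controls. A transcript back at control level by day 5 could therefore not be among them. Small heat shock protein TRINITY_DN38028_c0_g1 was at 30.7, 25.1 and 20.4 TPM in the controls, 189, 361 and 153 at day 3 and 246, 184 and 164 at day 5. Every later library was above every control, as the choice required, and the day 5 values lay inside the day 3 range. Its later level exceeded control by 2.99 (log2, SE 0.23, limma adjusted p = 2.69e-06), while day 5 minus day 3 was -0.16 (log2, 95% interval -0.73 to 0.41). A second small heat shock transcript of the same assembly cluster, TRINITY_DN38028_c0_g2, was at 251, 424 and 182 TPM at day 3 and 299.8, 235 and 250.1 at day 5, a difference of -0.05 (log2, 95% interval -0.60 to 0.51); it may share reads with the first.

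Metallothionein-like TRINITY_DN23386_c0_g2, named by a plant Swiss-Prot hit to a small metal-binding protein, was near 0 in the controls (0.36, 0.18 and 0.54 TPM) and stood at 9.06, 12 and 13.6 at day 3 and 11.5, 9.68 and 11.7 at day 5. The day 5 values again fell inside the day 3 range, with a difference of -0.06 (log2, 95% interval -0.56 to 0.44). A transcript annotated as a ubiquitin-like modifier-activating enzyme, TRINITY_DN34907_c1_g2, of the E1 class that starts ubiquitin transfer, was at 55.6, 80.8 and 73.9 TPM at day 3 and 59.3, 64.3 and 71.1 at day 5, and differed by -0.10 (log2, 95% interval -0.71 to 0.52). Its controls were at 15.1, 10.7 and 5.12 TPM, below every later library, which was a condition of the choice. Cathepsin L TRINITY_DN2937_c0_g1, whose Swiss-Prot hit is a ciliate protein, was at 4.69, 10.2 and 6.38 TPM and then 6.18, 6.67 and 6.26, and the lifeguard-like transcript TRINITY_DN35442_c1_g1, of a family of membrane proteins that restrain cell death, at 4.17, 7.26 and 7.57 and then 7.61, 8.86 and 7.59. The lifeguard-like values at day 5 lay just above those of day 3, by 0.33 (log2, 95% interval -0.30 to 0.96), and the cathepsin L values lay among them. All 6 of these rises over control passed the threshold under every alternative tried.

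For other transcripts that had risen over control the later levels were less certain. Cathepsin B TRINITY_DN39563_c3_g9 was at 35.9, 26.7 and 24.5 TPM in the controls, 44.6, 72.8 and 40.5 at day 3 and 61.5, 67.7 and 56 at day 5, with day 5 minus day 3 at 0.27 (log2, 95% interval -0.27 to 0.80). The day 3 values spread more widely than those of day 5, and replicate 2 of day 3 was the highest of all. The transcript TRINITY_DN34638_c1_g1, with a hit to the protease BMP1, which trims procollagen and frees growth factors, was at 474, 575 and 359.9 TPM and then 520.2, 321 and 403, but its controls were uneven at 67.2, 398 and 57.6 TPM, the highest of them above 2 later libraries, and its interval for day 5 minus day 3 ran from -1.27 to 0.90. Its call against control and that of cathepsin B were lost in 4 and 3 of 22 alternatives (highest adjusted p 0.157 and 0.101).

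Among proteasome genes and genes of protein synthesis, falls against control outnumbered rises. Of all genes, 3.4% had fallen and 1.24% risen. Most other lists of protein turnover leaned the other way. In them 7 of 37 cathepsin and legumain genes had risen (18.9%) and 0 fallen. Of 192 ubiquitin genes, 6 had risen (3.13%) and 3 fallen (1.56%). Of 118 digestive enzyme genes, 5 had risen (4.24%) and 2 fallen (1.69%), and of 79 autophagy genes 4 (5.06%) and 1 (1.27%). Among 56 ER folding and secretion genes, 1 had risen (1.79%) and 2 fallen (3.57%). These are few genes, and the balance of rises and falls over all genes depended on the scaling. Of 52 proteasome genes tested, 8 had fallen (15.4%) and none had risen. The median of the 8 against control was -0.75 at day 3 and -0.75 at day 5, and all 8 were bounded between these times, a bound wider than each of their falls. The alpha-5 subunit TRINITY_DN34971_c0_g1, part of the ring that forms the proteolytic core, was at 118, 117 and 99.5 TPM in the controls, 52.3, 68.9 and 58.4 at day 3 and 59, 64.6 and 51.8 at day 5. Controls and later libraries did not overlap, and the later times did: day 5 minus day 3 was -0.03 (log2, 95% interval -0.41 to 0.35). Mitochondrial ribosomal proteins, which make up the ribosome that translates the mitochondrial genome, were bounded in 49 of 50 cases (98%), against 54.9% of all genes. However, 35 of these genes have flatworm hits, a class bounded in 88.5% of cases. Of the 50, 10 had fallen against control (20%) and none had risen, with a median of the 10 of -0.80 at day 3 and -0.88 at day 5. The S21 protein TRINITY_DN10775_c0_g1, chosen after its values were seen, was at 34.5, 38.9 and 28.9 TPM at day 3 and 29.3, 34.1 and 37.2 at day 5 against a control mean of 69.5 ± 3.86 (SD, n = 3). The list median was -0.14 for day 5 minus day 3, against -0.04 for all genes.

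Cytosolic ribosomal proteins were the largest list, with 319 tested genes. Against control 57 had fallen (17.9%, against 3.4% of all genes) and 1 had risen, and 37 of these 58 were bounded between day 3 and day 5. The median of the 57 against control was -0.92 at day 3 and -1.16 at day 5; the list median of day 5 minus day 3 was -0.12. The list mixes sources, since 41 of its tested genes have flatworm hits, and genes from close copies may share reads. Ribosomal protein S30 TRINITY_DN30596_c0_g1 was at 1107, 1030.1 and 979 TPM at day 3 and 934, 1211 and 1146 at day 5, a difference of 0.07 (log2, 95% interval -0.33 to 0.47). The times overlapped, and its own fall against control was lost in 15 of 22 alternatives (highest adjusted p 0.156). Splicing genes, which cut introns from pre-mRNA, showed 14 falls (12.4%) and 1 rise against control among 113, and 13 of the 15 were bounded. The median of the 14 falls was -0.82 at day 3 and -0.86 at day 5. SmB TRINITY_DN36704_c0_g8, a core protein of the splicing particles chosen after its values were seen, was at 102 to 138 TPM in the controls and averaged 70.2 ± 13 at day 3 and 70.7 ± 9.77 at day 5 (SD, n = 3). Its fall against control was lost in 5 of 22 alternatives (highest adjusted p 0.0997).

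Falls against control outnumbered rises among DNA replication, germ granule and histone genes too, and the medians of these lists for day 5 minus day 3 lay below that of all genes. Cyclins, CDKs and mitosis genes had 2 falls (2.27%) and 1 rise among 88. DNA repair genes had 1 fall among 32 (3.1%), so that neither share lay above the 3.4% of all genes. The cyclin list median relative to all genes was -0.07, and -0.003 without replicate 2 of day 3. Of 43 genes of DNA replication and nucleotide synthesis, 9 had fallen against control (20.9%, against 3.4%), with a median of the 9 of -1.01 at day 3 and -1.15 at day 5; 8 of the 9 were bounded. The list median of day 5 minus day 3 was -0.18, with 35 genes lower and 8 higher, where 15554 of all tested genes were lower and 11742 higher. Of the list, 2 genes were at unadjusted p under 0.05 (4.65%, against 3.08% of all genes), both lower, and 0 passed the adjusted threshold. Relative to the median of all genes the list stood at -0.13, and at -0.12 without replicate 2 of day 3. MCM2 TRINITY_DN38959_c0_g1, a subunit of the helicase that opens DNA for replication, was at 9.37, 17.1 and 9.7 TPM at day 3 and 7.9, 7.24 and 7.51 at day 5. All day 5 values were below all day 3 values, and the difference was -0.56 (log2, 95% interval -1.08 to -0.04) with an unadjusted p of 0.0352 and an adjusted p of 1. The difference for MCM2 was -0.30 without replicate 2 of day 3. The most abundant member, the ribonucleotide reductase subunit TRINITY_DN36066_c1_g1, which supplies DNA building blocks, was at 57.6, 90.8 and 75 TPM and then 64.3, 71.1 and 57.4, overlapping, with -0.19 (log2, 95% interval -0.61 to 0.23).

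Piwi and other germ granule genes, which guard the neoblast genome against transposons, had a list median of -0.16 over 24 genes. DjPiwiA TRINITY_DN34216_c3_g2 was at 69.8, 137 and 73.9 TPM at day 3 and 64.3, 73 and 57.7 at day 5, and DjPiwiB TRINITY_DN38791_c0_g1 at 73.1, 124 and 74.5 and then 73.2, 74.6 and 65.3. In both the high value was replicate 2 of day 3 and the other libraries overlapped; the differences were -0.46 (log2, 95% interval -0.98 to 0.07) and -0.30 (log2, 95% interval -0.80 to 0.20). Relative to all genes the list median was -0.12 with that library and -0.02 without it. The vasa-like helicase DjVLGA TRINITY_DN35646_c1_g2, chosen after its values were seen, had fallen against control by 1.07 (log2, SE 0.17, limma adjusted p = 0.00191) and averaged 28.5 TPM at day 3 and 29.1 at day 5. A list of names gave 34 flatworm-hit neoblast markers, among them piwi, MCM and ribonucleotide reductase genes. It overlaps the lists described here, so it repeats part of their values. Of the 34, 5 were higher and 29 lower at day 5, with a median of -0.18. Relative to all genes and without replicate 2 of day 3 the median was -0.14. Of all genes with flatworm hits, 1429 were higher and 2728 lower. Genes can shift together within a library, so such counts are not independent. Markers of other cell types moved as well: the median was -0.23 over 28 flatworm-hit muscle markers, with 5 higher and 23 lower, -0.11 over 11 neuron markers, -0.06 over 9 cilia markers and -0.00 over 13 gut markers. Relative to all genes and without replicate 2 of day 3, the muscle median was -0.06, that of neurons 0.02, that of cilia 0.15 and that of gut 0.21. Fewer cells of a type and less RNA per cell cannot be told apart in whole worms, and their part in the list medians was not tested.

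Of 45 histone genes, 18 had fallen against control (40%, against 3.4% of all genes) and 16 of those were bounded, with a median of the 18 of -1.40 at day 3 and -1.43 at day 5. Histone H2A TRINITY_DN37185_c1_g5, a flatworm-hit nucleosome protein, was at 612, 612 and 502 TPM in the controls, 349, 357 and 348 at day 3 and 276, 352 and 335 at day 5, with -0.14 (log2, 95% interval -0.50 to 0.23) between the later times. The largest falls against control taken by the naming rule were mostly of another kind. Histone H3.v1-like TRINITY_DN40634_c0_g1 and the ciliate-hit transcripts H3 TRINITY_DN38360_c2_g2, H2B TRINITY_DN40711_c0_g1 and H4 TRINITY_DN32064_c2_g4 were at 18.5 to 44.7 TPM in the control libraries, 0.22 to 2.49 TPM in those of day 3 and 0.24 to 3.83 TPM in those of day 5. H2B, for one, was at 1.38, 2.49 and 2.47 TPM and then 3.83, 0.34 and 1.38. These levels overlapped and are too low to show a difference, with H2B at -0.30 (log2, 95% interval -1.09 to 0.49). The ciliate-hit centrin-2 TRINITY_DN16790_c0_g1, a protein of the bases of cilia, was at 1.28, 22.4 and 4.08 TPM at day 3 and 3, 3.55 and 4.64 at day 5, with replicate 2 of day 3 far above the rest. The last of the 6 largest falls, TRINITY_DN37580_c1_g1, with a replicase hit, was between 0 and 3.69 TPM in all 6 libraries, with an interval from -2.19 to 1.49.

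**Figure D3:**
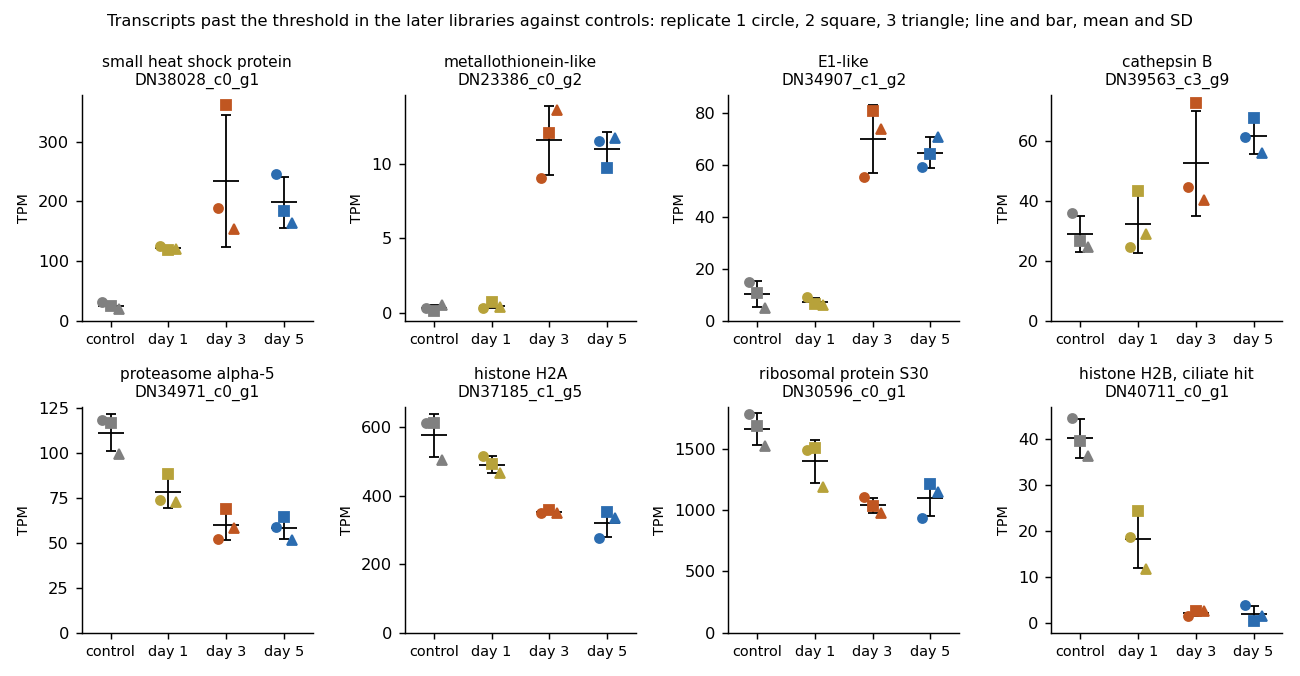
TPM in all 12 libraries of 8 transcripts past the threshold at the later times against control; circles, squares and triangles are replicates 1, 2 and 3, and the line and bar are mean and SD. Day 3 and day 5 values overlap in all 8 panels, above the controls in the 4 upper and below them in the 4 lower ones.

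Among the stress genes, the times overlapped for HSP70 and ferritin and not for a glutathione S-transferase. HSP70 TRINITY_DN36275_c0_g1, the general folding chaperone, was at 294, 497 and 356 TPM at day 3 and 370.4, 459 and 376 at day 5, with 0.10 (log2, 95% interval -0.39 to 0.58). Of 92 chaperone genes 70 were bounded. Glutathione S-transferase TRINITY_DN37393_c1_g6, a detoxification enzyme that couples glutathione to foreign compounds, was at 2025, 1501 and 2279.9 TPM and then 2521, 2859 and 2791. All 3 day 5 values were above those of day 3, but the difference of 0.51 (log2, 95% interval -0.11 to 1.13) did not pass, with an unadjusted p of 0.0986. Ferritin TRINITY_DN30093_c0_g1, the iron store, had fallen against control by 0.81 (log2, SE 0.18, limma adjusted p = 0.0168) and overlapped between 57.4, 81.9 and 59.2 TPM at day 3 and 46.3, 63.5 and 54 at day 5; the call against control was lost in 2 of 21 alternatives (highest adjusted p 0.116).

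Beta-actin TRINITY_DN36831_c0_g3 was at 2276, 3446 and 2955 TPM at day 3 and 3256, 3076 and 2828 at day 5, and the glycolytic enzyme GAPDH TRINITY_DN34730_c1_g1 at 1580.5, 1592 and 1776 and 1556, 1888 and 1816. Elongation factor 1-alpha TRINITY_DN35464_c1_g2, which brings tRNA to the ribosome, was at 1765, 2944 and 2089 and 2141, 2166 and 1681. The times overlapped in all 3, with differences of 0.10, 0.09 and -0.16 whose intervals stayed within 1 log2. The unannotated transcripts TRINITY_DN37864_c2_g1 and TRINITY_DN36963_c0_g5, the most abundant of the series, took 28.5 ± 8.07% and 22.5 ± 6.75% of the TPM at day 3 and 30.5 ± 1.88% and 21.1 ± 3.59% at day 5 (SD, n = 3; two-sided exact permutation p = 0.9 for both), so that shifts in them would scale all other values. Replicate 2 of day 3 held the lowest share of the first, 19.7%, and the highest of the second, 30.2%.

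Across the 38 functional lists the medians of day 5 minus day 3 ran from -0.18 (tubulins, 42 genes) to 0.06 (autophagy and lysosome membrane, 79 genes), and 0 genes in any list passed the adjusted threshold. Apart from tubulins, DNA replication and germ granule genes, the lowest medians were those of mitochondrial ribosomal proteins (-0.14), DNA repair (-0.14, 32 genes) and metal binding (-0.14, 24 genes). The highest medians were those of the autophagy genes and of the cathepsins and legumains (0.06, 37 genes). Of the cathepsins and legumains, 7 had risen against control (18.9%, against 1.24% of all genes) and none had fallen, 5 of the 7 being bounded. Further lists lay above all genes, among them mitochondrially encoded subunits (0.002), lipid metabolism (-0.02) and transcription factors (-0.02). Transcription factors stood at 0.10 relative to all genes without replicate 2 of day 3. The order partly rested on replicate 2 of day 3. Relative to all genes, tubulins moved from -0.14 to -0.05 without it, nuclear oxidative phosphorylation genes from -0.05 to -0.17 and cathepsins from 0.10 to 0.17, while autophagy genes stood at 0.10 and 0.09. Under the 3 other scalings the medians of the DNA replication, germ granule, tubulin, cathepsin and autophagy lists kept their sign. The most bounded lists beside small heat shock proteins (8 of 8) and mitochondrial ribosomal proteins were transcription factors (79 of 87), solute carriers and aquaporins (87 of 96) and Wnt, BMP, Hedgehog, FGF and Notch genes (55 of 61), and the least bounded were transposons (93 of 272) and mitochondrially encoded respiratory subunits (15 of 40). Bounded shares differ by abundance and hit class, so this order does not by itself mark a function as stable.

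**Figure D4:**
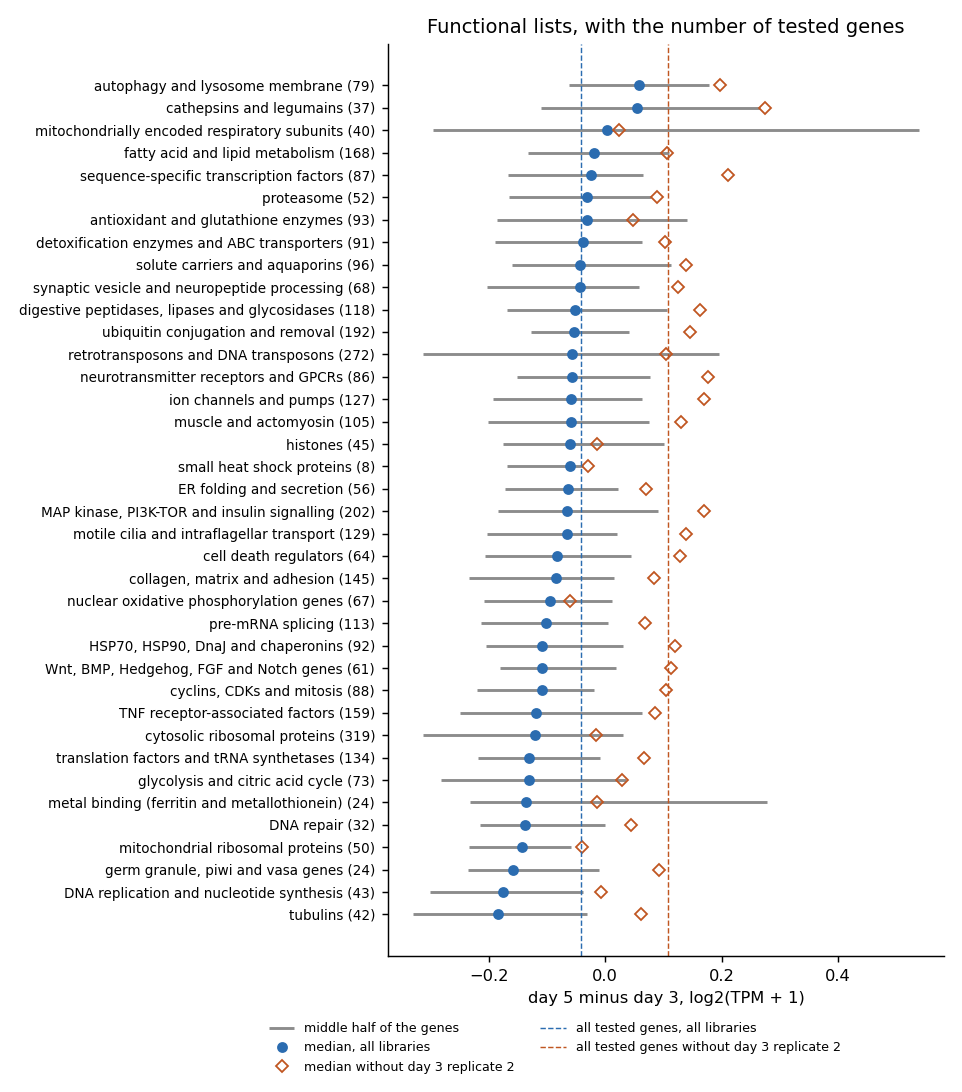
Median of day 5 minus day 3 on the log2(TPM + 1) scale for the 38 lists (number of tested genes in brackets), with all libraries (blue) and without replicate 2 of day 3 (orange); grey lines span the middle of the genes from the lower to the upper quartile and dashed lines mark the median of all tested genes, -0.04 and 0.11. No list median lies further than 0.17 from the matching dashed line.

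Of all annotated genes, the lowest p was that of a caspase, a protease that carries out programmed cell death. Caspase-3-like TRINITY_DN38362_c0_g1 was at 9.1, 22.4 and 16.5 TPM in the controls, 25.6, 27.2 and 38.4 at day 3 and 3.64, 14.8 and 5.25 at day 5. All day 3 values were above all others and all day 5 values below those of day 3. The difference was -2.00 (log2, 95% interval -2.83 to -1.18), with an adjusted p of 0.627; over 21 alternatives the adjusted p ran from 0.0468, without replicate 2 of day 5, to 1. It was -2.07 without replicate 2 of day 3, with an adjusted p of 0.783. Of the 27329 genes, no other was called for day 5 against day 3 in any of the 23 alternatives.

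The 23 caspase-annotated genes tested were counted after the values of the cell death list had been seen. At day 5, 17 were lower and 6 higher, with a median of -0.22, against -0.05 for the other 41 genes of that list. Of all tested genes, 15554 were lower and 11742 higher. Without replicate 2 of day 3 the caspase median was -0.03, with that of all genes at 0.11. It was -0.38 without replicate 3 and -0.30 without replicate 1 of day 3, with that of all genes at -0.15 and -0.08. The 3 genes of the list at unadjusted p under 0.05 (3 of 64, 4.69%, against 3.08% of all genes) were all caspases and all lower. Caspase-10 TRINITY_DN35979_c1_g1 was at 29.4, 59.2 and 53.1 TPM at day 3 and 7.44, 27.1 and 13 at day 5, with -1.63 (log2, 95% interval -2.52 to -0.74). A partial caspase-3, TRINITY_DN39349_c2_g3, was at 55.9, 88.3 and 86.4 TPM and then 44.8, 35.6 and 52.6, with -0.77 (log2, 95% interval -1.33 to -0.21). Neither pair of times overlapped and neither passed the adjusted threshold (adjusted p = 1). Caspase names come from hits in distant animals, 19 of 23 outside the flatworms.

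TNF receptor-associated factors, adaptors that couple receptors to NF-kB and stress kinases, form an expanded family here with 159 tested genes, of which 3 were higher and 3 lower at unadjusted p under 0.05, a share of 3.77% near the 3.08% of all genes. A partial TRAF-2, TRINITY_DN39013_c0_g1, was at 4, 8.03 and 4.73 TPM at day 3 and 0.54, 1.41 and 1.12 at day 5, with -1.68 (log2, 95% interval -2.57 to -0.79) and an adjusted p of 1. The opposite direction was seen for TRAF3 TRINITY_DN38564_c0_g1, chosen after its values were seen, at 15.3, 19.1 and 22 TPM in the controls, 11.9, 9.13 and 6.82 at day 1, 19.2, 20 and 17.8 at day 3 and 35.5, 37.4 and 31.8 at day 5. Its replicates were close at each time and day 3 and day 5 did not overlap, with 0.84 (log2, 95% interval 0.39 to 1.29) and an adjusted p of 1. The adjusted p over 21 alternatives was at least 0.787. The death-associated protein 1 transcript TRINITY_DN28866_c0_g1, the most abundant of the cell death list, was at 266, 289 and 224 TPM and then 213, 269 and 292, with -0.01 (log2, 95% interval -0.41 to 0.38).

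In the lists of transporters, of matrix and adhesion genes and of ion channels and pumps, the genes with the smallest p were higher at day 5. Aquaporin TRINITY_DN38110_c1_g1, a water channel, was at 45.3, 96.3 and 39.5 TPM at day 3 and 113, 106 and 133 at day 5, with 1.05 (log2, 95% interval 0.40 to 1.71). The lowest day 5 value was just above replicate 2 of day 3, and without that library the difference was 1.44 (adjusted p = 0.54, range over 22 alternatives 0.54 to 1). Tetraspanin 10-like TRINITY_DN36223_c2_g3, of a family that organises membrane patches, was at 239, 235 and 208 TPM and then 359, 342 and 376, with 0.66 (log2, 95% interval 0.24 to 1.08). A Na+/K+-ATPase subunit, TRINITY_DN35924_c0_g2, of the pump that sets the ion gradients of the cell, was at 32.2, 31.4 and 25.2 TPM and then 48.3, 38.8 and 39.9, with 0.50 (log2, 95% interval 0.06 to 0.94). In these 3 genes all day 5 values exceeded all day 3 values, and none passed the adjusted threshold (adjusted p = 1). In the same lists, the most abundant aquaporin, TRINITY_DN35652_c1_g4, was at 175, 272 and 133 TPM and then 146, 211 and 162, overlapping, with -0.12 (log2, 95% interval -0.67 to 0.43).

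Cathepsin L TRINITY_DN35444_c1_g1 was at 34.3, 56.4 and 19 TPM at day 3 and 77.3, 50.8 and 65.8 at day 5, a difference of 0.91 (log2, 95% interval 0.26 to 1.56) in which replicate 2 of day 3 overlapped the day 5 values. The acyl-CoA-binding protein TRINITY_DN3505_c0_g1, a carrier of activated fatty acids, had fallen against control by 1.46 (log2, SE 0.27, limma adjusted p = 0.00602) and was at 17, 42.2 and 32.5 TPM at day 3 and 12.8, 12.7 and 17.9 at day 5, with -0.96 (log2, 95% interval -1.62 to -0.30). Replicate 1 of day 3 lay among the day 5 values. A beta-tubulin, TRINITY_DN34708_c0_g7, a subunit of microtubules, was at 23.1, 45.3 and 38.1 TPM and then 22.2, 22.8 and 14.4, not overlapping, with -0.79 (log2, 95% interval -1.43 to -0.15), while the most abundant beta-tubulin, TRINITY_DN38829_c3_g3, overlapped at 898, 1915 and 1075 and 1359, 1138 and 815. The adjusted p was 1 for all of these.

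**Figure D5:**
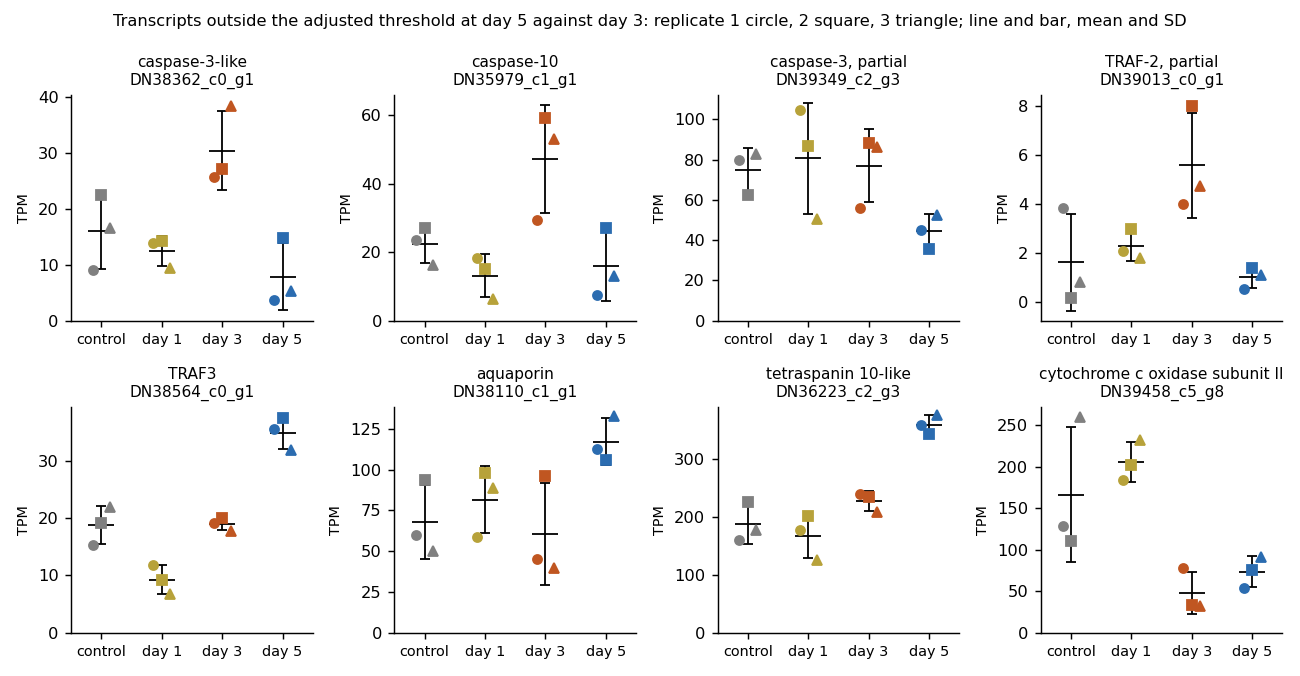
TPM in all 12 libraries of 7 transcripts with an unadjusted p under 0.05 for day 5 against day 3 and of cytochrome c oxidase subunit II (unadjusted p = 0.0579); symbols, line and bar as in the plot of the plateau transcripts. None passes the adjusted threshold; the caspases and the partial TRAF-2 lie lower at day 5 and the other 4 higher, with overlap for cytochrome c oxidase subunit II.

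Mitochondrially encoded respiratory subunits, the parts of the electron transport chain made inside the mitochondrion, had the widest spread of any list. Of 40 tested, 3 were higher and 2 lower at unadjusted p under 0.05 (12.5%, against 3.08% of all genes), and the medians differed by the species of the hit. The 8 genes with cattle-type hits were all lower at day 5, with a median of -1.13 and none bounded. Their library medians overlapped, at 1.44, 0.21 and -0.04 at day 3 and -1.96, 0.96 and -0.69 at day 5 (log2, relative to each gene's mean over the 6 libraries). The 22 with other hits were higher in 17 cases, with a median of 0.47. Their library medians overlapped too, at -0.67, -0.41 and 0.47 and then 0.33, -0.01 and 0.38. The 10 with flatworm hits had a median of -0.14. Genes of a class can move together within a library, so they do not count as replicates. The cattle-type genes also differed between libraries of a time. Cytochrome c oxidase subunit I TRINITY_DN37867_c0_g10, with a hit in Bos javanicus, was at 167, 62.8 and 54.6 TPM at day 3 and 10.7, 112 and 32.4 at day 5, overlapping, with -1.25 (log2, 95% interval -2.46 to -0.04).

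Among the flatworm-hit genes of this list, cytochrome c oxidase subunit II TRINITY_DN39458_c5_g8 was at 128, 111 and 259.7 TPM in the controls, 77.5, 34 and 32.8 at day 3 and 54.2, 76 and 90.8 at day 5. Day 5 lay higher by 0.69 (log2, 95% interval -0.03 to 1.41), and replicate 1 of day 3 overlapped it. Subunit 3 of NADH dehydrogenase TRINITY_DN34363_c3_g9, chosen after its values were seen, was at 30.5, 23.6 and 16.1 TPM and then 23.9, 29.1 and 21.5, with 0.12 (log2, 95% interval -0.47 to 0.71), and had fallen against control by 2.12 (log2, SE 0.24, limma adjusted p = 0.000107). A further subunit 3 transcript, TRINITY_DN24288_c0_g1, whose hit is a human protein, was at 1.51, 1.63 and 3.53 TPM at day 3 and 5.19, 14.2 and 15.4 at day 5, not overlapping, with 1.90 (log2, 95% interval 0.59 to 3.20). Nuclear-encoded oxidative phosphorylation genes, by comparison, were bounded in 59 of 67 cases, with 0 genes at unadjusted p under 0.05.

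Genes with ciliate-type hits, a class set by the Swiss-Prot hit alone, lay lower at day 5 in 61 of 72 cases, with a median of -0.35. Of all 27329 tested genes, 15554 were lower. The library medians of these genes at day 3 ran from -0.43 in replicate 1 to 0.80 in replicate 2 (log2, relative to each gene's mean over the 6 libraries). Without replicate 2 the median was -0.05, or -0.16 relative to all genes. The 20 cattle-type genes that had fallen against control had a median of -0.57 between day 3 and day 5, and -0.58 without that library; 8 of the 20 were bounded and 2 were at unadjusted p under 0.05. The part of food or of carried organisms in these values was not tested.

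Of the 20 genes with the lowest p, ranked after the values were seen, 16 had no hit and 4 had one. Of all 27329 tested genes, 15428 had no hit, and 4.23% of those were at unadjusted p under 0.05, against 3.08% of all genes. Among the 20, 9 were higher and 11 lower at day 5. Day 3 and day 5 did not overlap in any of the 20, as in 6.39% of all genes, but a ranking by p favours such genes. TRINITY_DN38383_c0_g1 was at 4.87, 8.36 and 5.19 TPM at day 3 and 0, 0.24 and 1.21 at day 5, with -2.32 (log2, 95% interval -3.08 to -1.56) and an adjusted p of 0.233. TRINITY_DN14832_c0_g1 had fallen against control by 2.08 (log2, SE 0.24, limma adjusted p = 0.000109) and stood lower again at day 5, at 3.87, 4.7 and 2.5 TPM and then 0.21, 0.64 and 0.97, with -1.55 (log2, 95% interval -2.13 to -0.96) and an adjusted p of 0.579. In the opposite direction, TRINITY_DN34358_c2_g1 was at 2.46, 1.46 and 2.82 TPM at day 3 and 12, 7.03 and 8.9 at day 5, with 1.66 (log2, 95% interval 0.97 to 2.36) and an adjusted p of 0.627. The unannotated TRINITY_DN38157_c0_g4 was at 2.19, 0.25 and 0.3 TPM and then 7.51, 3.93 and 6.04, with 1.94 (log2, 95% interval 1.05 to 2.83) and an adjusted p of 0.877, which ran from 0.0788 to 1 over 21 alternatives. None of the 4 passed the threshold.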

How the data were processed

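Polyadenylated RNA of whole worms was measured in 12 libraries; groups and replicate numbers come from the labels. The deposited table holds TPM as far as its values show (its header names no unit, and library sums are nearly equal). The tools listed in the submitters' processing notes are Salmon, edgeR, cutadapt and FastQC, with versions and the assembly step not given in the sources used here. Salmon divides reads among similar transcripts, which can blur close copies, and TPM hides depth and ties all values to the most abundant transcripts. No gene in the table has a maximum under 2.01 TPM. The table has 0 per-sample columns of other samples, and no sequences or genome reference were used here.

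Values were taken as log2(TPM + 1), which understates changes of low genes. Genes that reached 1 TPM in 3 or more libraries were fitted with limma 3.58.1 in R 4.3.3, all 4 groups in 1 fit with an intensity trend; tables were made with pandas 2.3.3 in Python 3.11.15. P-values were adjusted by the Benjamini-Hochberg method across the tested genes, intervals are 95% from the same fit, and shares of TPM were compared by exact permutation tests. The fit was tested on simulated data. The 38 lists are patterns on annotation text, refined after the annotation had been read. Members and lists were chosen with earlier results of these data known.

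Named genes are the called genes of day 5 against day 3 (0), the 6 largest rises and falls of the mean of day 3 and day 5 against control (called, not overlapping, mean of at least 5 TPM, with a named protein), per list the most abundant flatworm-hit member and the one with the smallest p, and the 2 most abundant transcripts; lists far from the median of all genes came first, though lists nearer to it are also drawn on. Other genes are marked in the text as picked with their values in view. Alternatives were 3 other scalings, 2 filters, flatworm hits alone, no intensity trend, a pseudocount of 0.1, fewer groups, a replicate block, a fold minimum and leaving out each library.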

Additional observations from a re-analysis of the deposited data

How the results depend on the processing

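The count for day 5 against day 3 was 0 in every alternative except without replicate 2 of day 5, so that leaving out libraries gave 0 to 1 lower and 0 to 0 higher genes. The number of genes with an interval within 1 log2 of 0 was 7411 of 9334 with a filter of 5 TPM, 3800 of 4158 with flatworm hits alone, 9054 with a pseudocount of 0.1, and 11470 to 15501 when 1 library was left out. For the mean of day 3 and day 5 against control, 1016 genes were higher with quantile normalization, 846 with median-ratio scaling, 562 after rescaling without the 2 most abundant transcripts, 73 with flatworm hits alone and 118 to 315 without 1 library. The lower genes numbered 582 after that rescaling, 330 with flatworm hits alone, 603 without an intensity trend, 505 with a fold minimum of 1 log2 and 290 to 1212 without 1 library. Of the genes called against control, 1688 of 2060 were bounded between day 3 and day 5 with quantile normalization, 1491 of 1836 with median-ratio scaling, 382 of 403 with flatworm hits alone, 585 of 845 without an intensity trend and 281 to 1108 without 1 library. The cause of these differences was not tested beyond the fewer genes or libraries entered. No named gene changed direction while called; of 1912 refits of 90 named genes, 64 changed the sign of an uncalled day 5 minus day 3 value. The replicate numbers did not pair the samples: same-numbered day 3 and day 5 libraries had correlations of deviations of -0.13, -0.00246 and 0.0137. With the replicate block, 0 genes were called for day 5 against day 3, with a smallest adjusted p of 0.0788, and 15063 were bounded. Depth is unknown, and genes under 2 TPM have wide intervals, so that drift in them was mostly not detectable.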
